A study of Mus musculus with 12 samples.

Results

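The genes described here are the TGF-beta ligands Tgfb1, Tgfb2 and Tgfb3, their receptors Tgfbr1, Tgfbr2 and Tgfbr3, the signal transducers Smad2 and Smad3, and the inhibitors Smad7 and Skil. They were taken by gene symbol, and all 10 were found among the 30130 genes listed. RNA of whole tissue was sequenced from chronic aneurysms of the mouse proximal thoracic aorta (cPTAA, 7 libraries, numbered 2, 3, 4, 6, 7, 9 and 12) and from the same segment after sham surgery (5 libraries, numbered 1, 5, 8, 10 and 11). Every mouse was male and of the strain given as C56BL/6J, and no age is given. The aneurysm mice had elastase, which degrades elastic fibres, applied around the aorta, together with BAPN, an inhibitor of the lysyl oxidases that crosslink collagen and elastin. The sham mice had normal water. Elastase, BAPN and the injury that goes with them differ from sham only as one condition. No label ties a sample to an animal, and the p-values below reflect how the libraries vary, which may in part be technical.

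TGF-beta ligands are made as latent dimers that are tethered in the matrix to latent TGF-beta binding proteins and fibrillin, and integrins or proteases release them. A released ligand brings the type II receptor Tgfbr2 together with the type I receptor Tgfbr1, which phosphorylates Smad2 and Smad3, and these enter the nucleus with Smad4. Smad7 and Skil are induced by the pathway and restrain it, and in the aorta human mutations of several of these genes cause inherited thoracic aneurysm.

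The deposited values were whole reads divided by 1 factor per library, called normalised read counts below, with 14.1 to 17.5 M reads recovered per library. The values are given by library number in sham, and as the lowest, median and highest value in cPTAA. Each log2 fold change subtracts the sham mean from the cPTAA mean of log2(value + 1) and is given ± SE, with the adjusted p of limma (Benjamini-Hochberg over all 21415 genes tested) and a threshold of 0.05. All 10 genes passed the filter on low values, and the fewest reads behind any value was 135, for Tgfb1 in sham 1, where counting error alone gives a Poisson 95% interval of 113 to 160 reads.

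All 3 ligands and Tgfbr2 rose in the aneurysms, Tgfbr3 fell, and the other 5 genes did not pass the test. Of all genes tested, 12.9% were called higher and 11.1% lower, against 4 and 1 of the 10 here. The median log2 fold change was 0.44 over the 10 genes and -0.05 over all genes tested. In none of the 10 genes were the groups free of overlap, whereas 8.02% of all genes tested had every cPTAA value above every sham value and 4.95% had every one below.

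Annotated promoters are shown for the 3 genes that rose and had a window in the RefSeq table used, with Tgfbr1, the receptor nearest to no change, set beside them. Each line gives 250 bases directly upstream of the annotated transcript start, read 5′ to 3′ on the gene's strand (build GRCm38.p6). The windows are chr7:25686752-25687001 (plus strand) for Tgfb1, chr1:186705990-186706239 (minus strand) for Tgfb2, chr9:116175364-116175613 (minus strand) for Tgfbr2 and chr4:47352972-47353221 (plus strand) for Tgfbr1. Capitals mark matches, on either strand, to TATAAA (the core of a TATA box), GGGCGG (a GC box), CAGAC (the longer form of the Smad box) and TGACG (part of a cyclic AMP response element), none of which overlapped another.
Tgfb1: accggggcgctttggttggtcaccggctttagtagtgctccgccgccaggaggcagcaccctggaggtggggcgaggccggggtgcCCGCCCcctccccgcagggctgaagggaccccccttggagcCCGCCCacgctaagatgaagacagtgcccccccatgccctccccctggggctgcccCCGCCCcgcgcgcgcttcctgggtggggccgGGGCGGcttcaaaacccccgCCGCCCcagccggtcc
Tgfb2: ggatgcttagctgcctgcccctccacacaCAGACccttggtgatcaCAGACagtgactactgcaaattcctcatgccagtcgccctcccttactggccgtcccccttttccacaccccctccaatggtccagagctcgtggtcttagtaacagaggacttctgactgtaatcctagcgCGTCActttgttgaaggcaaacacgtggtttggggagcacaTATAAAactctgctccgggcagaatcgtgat
Tgfbr2: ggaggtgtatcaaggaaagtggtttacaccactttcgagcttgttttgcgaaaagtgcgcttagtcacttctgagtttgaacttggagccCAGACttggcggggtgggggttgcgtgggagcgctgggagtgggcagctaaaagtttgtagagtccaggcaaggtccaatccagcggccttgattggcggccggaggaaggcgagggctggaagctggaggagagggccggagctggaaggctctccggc
Tgfbr1: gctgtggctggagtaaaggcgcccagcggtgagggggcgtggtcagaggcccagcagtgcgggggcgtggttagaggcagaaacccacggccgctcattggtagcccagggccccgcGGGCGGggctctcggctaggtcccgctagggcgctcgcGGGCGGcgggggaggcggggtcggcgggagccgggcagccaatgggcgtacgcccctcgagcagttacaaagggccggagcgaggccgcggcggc
The Tgfb1 window was 75.2% G and C and held 5 GC boxes. The Tgfb2 window was 53.6% G and C, with a TATA box whose first base lies 31 bases upstream of the start, a TGACG match 72 bases upstream and 2 CAGAC matches. The Tgfbr2 window was 58.4% G and C with 1 CAGAC match, and the Tgfbr1 window 74.8% with 2 GC boxes. Over all 32851 windows in the table, 12.4% held TATAAA, 32.7% GGGCGG, 42.2% CAGAC and 17.8% TGACG, and the median G and C content was 52.4%. A second Tgfbr1 window (52.8% G and C, 1 CAGAC match) and that of Smad3 (69.2%, 2 GC boxes) complete the set, so 5 of the 10 genes had a window. The matches describe these letters only.

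Tgfb1, the isoform made by many immune cells, had normalised read counts of 142, 156, 270, 232 and 393 in sham 1, 5, 8, 10 and 11, and of 372, 505 and 1004 in cPTAA (lowest, median and highest). The highest value, in cPTAA 12, stood far above the rest of its group, and 5 of the 7 aneurysms exceeded every sham library. The mean was 538 ± 215 in cPTAA (SD, n = 7) and 239 ± 101 in sham (SD, n = 5), a log2 fold change of 1.19 ± 0.27 (95% interval 0.61 to 1.78, limma adjusted p = 0.00523). Sham 11, the highest of its group, overlapped the lower aneurysms.

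Tgfb2, an isoform needed for development of the heart and outflow tract, had counts of 434, 564, 660, 477 and 383 in the sham libraries in the same order, and of 479, 1502 and 1843 in cPTAA. Only cPTAA 9 lay within the sham range, and the other 6 aneurysms were above it. The means were 1344 ± 456 (SD, n = 7) and 504 ± 110 (SD, n = 5), with a log2 fold change of 1.34 ± 0.28 (0.74 to 1.93, limma adjusted p = 0.00278).

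Tgfb3, an isoform known from palate and lung development, was counted at 1761, 1913, 1624, 1277 and 1163 in sham, and at 1428, 3451 and 4186 in cPTAA. Again cPTAA 9 was the single aneurysm inside the sham range. The means were 3192 ± 938 (SD, n = 7) and 1547 ± 319 (SD, n = 5), with a log2 fold change of 0.998 ± 0.24 (0.49 to 1.51, limma adjusted p = 0.00677).

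The receptors did not move together. Tgfbr2, the type II receptor that binds ligand first, had counts of 3265, 3421, 3430, 3162 and 2935 in sham and of 3126, 5044 and 6256 in cPTAA. The sham values lay close together, and 6 of 7 aneurysms exceeded them all, with cPTAA 9 again inside. The means were 4810 ± 1015 (SD, n = 7) and 3243 ± 205 (SD, n = 5), with a log2 fold change of 0.54 ± 0.16 (0.20 to 0.88, limma adjusted p = 0.0235). The call did not hold without sham 10 (0.53, adjusted p = 0.0555) or without sham 11 (0.51, adjusted p = 0.063).

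Tgfbr3 (betaglycan), a coreceptor that presents ligand, TGF-beta 2 above all, to the type II receptor, went the other way. Its counts were 2199, 2272, 2218, 2188 and 1899 in sham and 926, 1519 and 2178 in cPTAA. All aneurysms but cPTAA 2 lay below every sham library. The means were 1513 ± 383 (SD, n = 7) and 2155 ± 147 (SD, n = 5), with a log2 fold change of -0.55 ± 0.17 (-0.91 to -0.18, limma adjusted p = 0.0297). The call was lost without sham 1 (-0.54, adjusted p = 0.0602), sham 5 (-0.53, 0.0662), sham 8 (-0.54, 0.0547) or sham 10 (-0.54, 0.0647), and with scaling by library totals (-0.42, 0.131).

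Tgfbr1, the type I receptor kinase, did not pass the test. It had counts of 2313, 2400, 2041, 2356 and 2202 in sham and of 1036, 2605 and 3337 in cPTAA. The aneurysms lay on both sides, 5 above every sham library and 2 below. The means were 2449 ± 751 (SD, n = 7) and 2262 ± 144 (SD, n = 5), and the log2 fold change of 0.04 ± 0.23 had an interval from -0.46 to 0.53 (limma adjusted p = 0.929), and turned negative without cPTAA 3 (-0.050) or cPTAA 4 (-0.025), and was 0.23 without cPTAA 9.

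**Figure D1:**
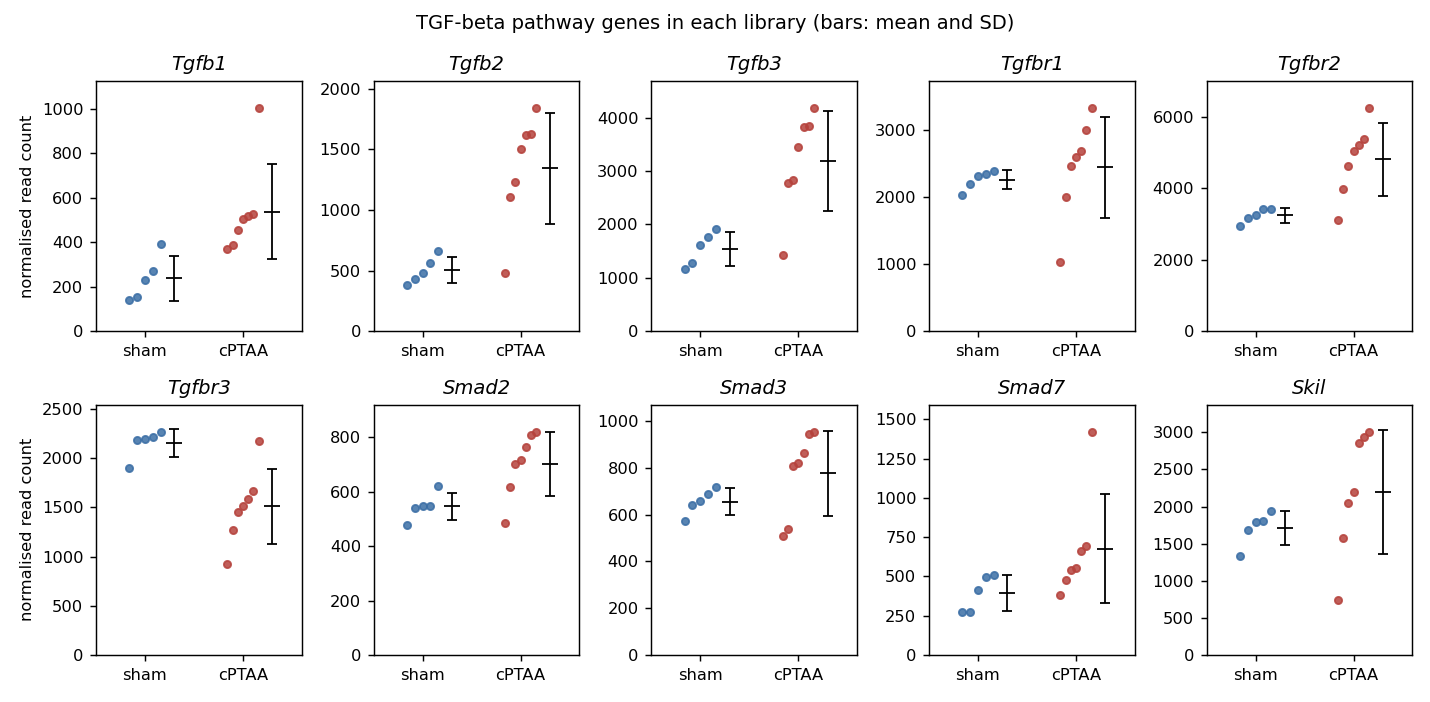
Normalised read count of each gene (vertical axis, linear and starting at 0) in each sham (blue, n = 5) and cPTAA (red, n = 7) library, with the mean and SD as bars. The groups overlap in every panel, and in the panels of Tgfb2, Tgfb3, Tgfbr2, Tgfbr3 and Skil only 1 cPTAA point lies within the sham range. In the panels of Tgfbr1 and Smad3 every cPTAA point lies outside that range, some above it and some below.

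Ratios between genes within a library do not depend on how the library was scaled. In all, 6 were compared, each with a two-sided exact permutation test over libraries and with Benjamini-Hochberg adjustment over the 6. The ratio of Tgfbr3 to Tgfbr2 ranged from 0.647 to 0.692 in sham and from 0.232 to 0.406 in cPTAA. Every aneurysm was below every sham library, including cPTAA 2, in which Tgfbr3 itself was within the sham range, and cPTAA 9, in which Tgfbr2 was. Tgfbr3 was called lower and Tgfbr2 higher in these same libraries. The ratio therefore largely restates those calls, and its separation is no independent evidence. How often ratios of other gene pairs separate the groups was not counted. On the log2 scale the ratio was -1.68 ± 0.25 in cPTAA (SD, n = 7) and -0.59 ± 0.04 in sham (SD, n = 5). The difference of -1.09 ± 0.10 (SE), 2.13-fold lower in cPTAA, had an exact p = 0.00253, the smallest that 7 against 5 libraries allow, and an adjusted p = 0.0152. The difference ranged from -1.15 to -1.02 when each library was left out in turn, and its adjusted p reached at most 0.0364. The brown adipocyte covariate described below, under which neither Tgfbr2 nor Tgfbr3 was called, was not applied to any ratio.

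The ratio of Tgfbr1 to Tgfbr2 also fell. It ranged from 0.595 to 0.750 in sham and from 0.332 to 0.662 in cPTAA, and 6 of 7 aneurysms lay below every sham library. The log2 difference was -0.50 ± 0.14 (SE, exact permutation p = 0.00505, adjusted p = 0.0152). In the aneurysms the RNA of Tgfbr2 was thus higher relative to both Tgfbr1 and Tgfbr3 than in sham.

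The other 4 ratios did not pass the test. Tgfb3 to Tgfb2 differed by -0.34 ± 0.21 on the log2 scale (exact permutation adjusted p = 0.269), Smad7 to Smad3 by 0.50 ± 0.30 (adjusted p = 0.263), Tgfb1 to Tgfb2 by -0.14 ± 0.43 and Tgfb1 to Tgfb3 by 0.19 ± 0.48 (both adjusted p = 0.727). The ratios that hold Tgfb1 spread widely within each group: Tgfb1 to Tgfb3 ranged from 0.0976 to 0.364 in cPTAA and from 0.0814 to 0.339 in sham. Their sign depended on single libraries, and was turned for Tgfb1 to Tgfb3 without sham 1 (-0.019) or sham 5 (-0.016) and for Tgfb1 to Tgfb2 without sham 11 (0.15).

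**Figure D2:**
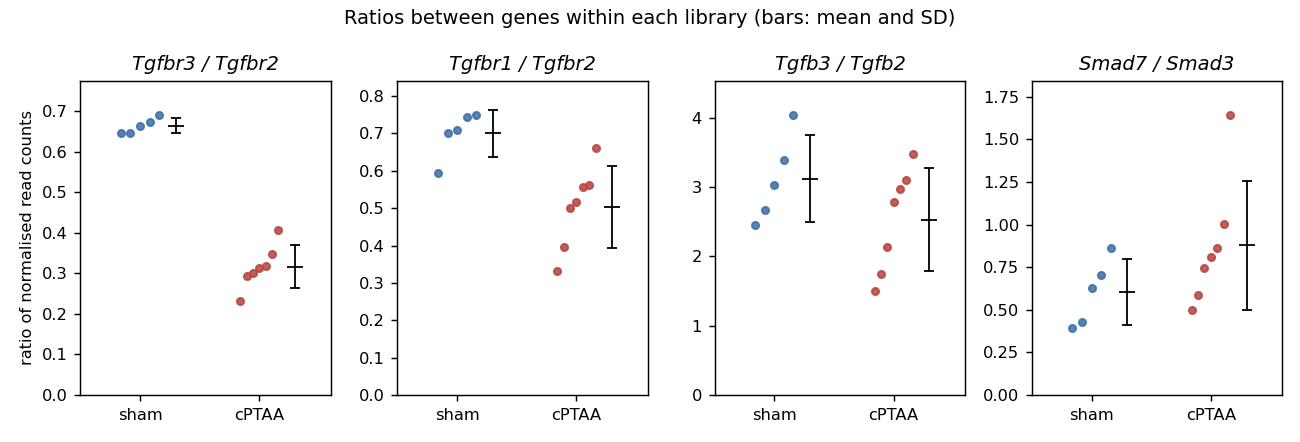
Ratio of normalised read counts between 2 genes of the same library (vertical axis, linear and starting at 0) in sham (blue, n = 5) and cPTAA (red, n = 7), with the mean and SD as bars. The Tgfbr3 to Tgfbr2 panel is free of overlap, with sham between 0.647 and 0.692 and cPTAA between 0.232 and 0.406.

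The transducers Smad2 and Smad3, which Tgfbr1 phosphorylates, differed less than the ligands did. Smad2 had counts of 621, 540, 547, 547 and 478 in sham and of 484, 718 and 821 in cPTAA. All aneurysms but cPTAA 7 and 9 lay above every sham library. The means were 702 ± 118 (SD, n = 7) and 547 ± 50.6 (SD, n = 5), and the log2 fold change of 0.35 ± 0.14 (0.04 to 0.65) had a limma adjusted p = 0.0906. Without cPTAA 9 it was 0.43 and passed (adjusted p = 0.00981), as it did with voom and sample weights (0.38, adjusted p = 0.00703).

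Smad3 had counts of 689, 642, 659, 572 and 720 in sham and of 509, 822 and 956 in cPTAA. Its aneurysms fell on both sides, 5 above the sham range and 2, cPTAA 6 and 9, below it. The means were 777 ± 182 (SD, n = 7) and 657 ± 56.0 (SD, n = 5), with a log2 fold change of 0.21 ± 0.17 (-0.16 to 0.57, limma adjusted p = 0.417). With voom and sample weights Smad3 was called higher (0.36, adjusted p = 0.02).

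Smad7, the inhibitory Smad that blocks the type I receptor, had counts of 272, 275, 414, 495 and 506 in sham and of 380, 553 and 1422 in cPTAA. The highest value was again that of cPTAA 12, and 5 aneurysms exceeded every sham library. The means were 676 ± 346 (SD, n = 7) and 392 ± 114 (SD, n = 5), with a log2 fold change of 0.71 ± 0.28 (0.12 to 1.31, limma adjusted p = 0.0788). Without cPTAA 9 it was 0.83 and passed (adjusted p = 0.0311). The DESeq2 test on the recovered reads (0.78, adjusted p = 0.0441) and voom with sample weights (0.75, adjusted p = 0.0141) called it too.

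Skil (SnoN), a nuclear repressor of Smad complexes, had counts of 1810, 1938, 1338, 1796 and 1677 in sham and of 745, 2189 and 3011 in cPTAA. Its cPTAA values spread from below the lowest to above the highest sham library. The means were 2195 ± 831 (SD, n = 7) and 1712 ± 229 (SD, n = 5), with a log2 fold change of 0.24 ± 0.29 (-0.38 to 0.86, limma adjusted p = 0.591). Without cPTAA 9 it was 0.48 and without cPTAA 4 0.15, neither called.

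**Figure D3:**
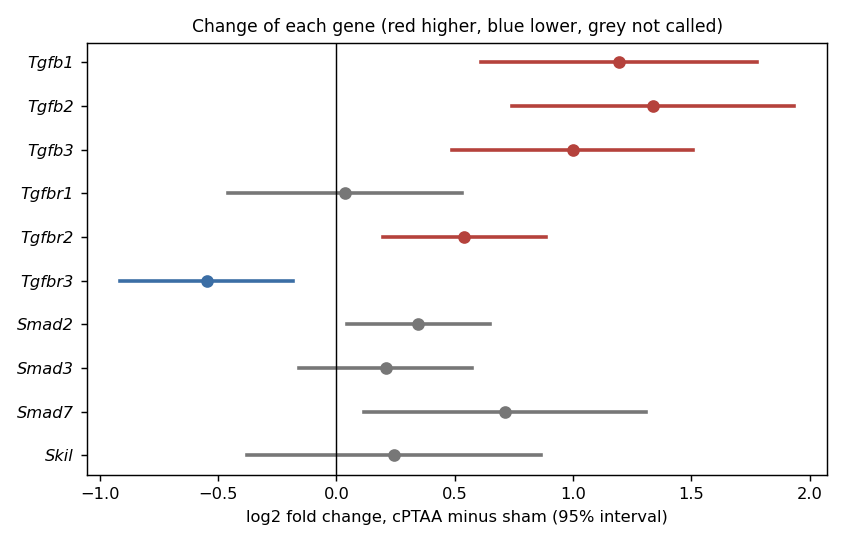
Log2 fold change of each gene (horizontal axis, cPTAA minus sham on log2(value + 1)) with its 95% interval, in red where called higher, blue where called lower and grey where not called. The 3 ligands lie between 0.998 and 1.34, Tgfbr2 at 0.54 and Tgfbr3 at -0.55.

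On the log2 scale, the aneurysms varied more among themselves than the sham libraries did in every one of these genes except Tgfb1. The log2 SD of Tgfbr1 was 0.56 in cPTAA and 0.09 in sham, and that of Skil 0.72 and 0.21, while for Tgfb1 it was 0.47 and 0.60. In normalised read counts the SD of Tgfb1 was also larger in cPTAA, 215 against 101. These SDs are given as a description. A single library, cPTAA 9, was the lowest aneurysm in 8 of the 10 genes, while cPTAA 2 was the highest in 4 and cPTAA 12 in 3, Tgfb1, Smad2 and Smad7. Among the sham libraries, sham 11 was the lowest in 5 genes and the highest in 3, and sham 5 was the highest in 4.

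Divided by the length of their merged exons, which puts levels of different genes on 1 scale (normalised reads per kb), the order in sham ran from Tgfb3 (457 ± 94.2 per kb, SD, n = 5) through Tgfbr2 (396 ± 25.05), Tgfbr1 (346 ± 22.0), Tgfbr3 (329 ± 22.4), Skil (177 ± 23.6), Smad3 (118 ± 10.1), Tgfb2 (87.0 ± 19.0), Smad7 (86.8 ± 25.3) and Smad2 (62.2 ± 5.76) to Tgfb1 (47.4 ± 20.1). Tgfb3 and Tgfbr2, Tgfbr1 and Tgfbr3, Tgfb2 and Smad7, Smad7 and Smad2, and Smad2 and Tgfb1 were neighbours in that order whose means differed by less than the larger SD of the pair. In cPTAA Tgfb3 stayed first at 944 ± 277 per kb (SD, n = 7), ahead of Tgfbr2 at 588 ± 124 and Tgfbr1 at 375 ± 115. Tgfb2 moved from the seventh place to the fourth at 232 ± 78.7 per kb, level with Tgfbr3 at 231 ± 58.4 and Skil at 226 ± 85.8. Smad7 (149 ± 76.6), Smad3 (140 ± 32.9), Tgfb1 (107 ± 42.6) and Smad2 (80.0 ± 13.5) followed, each within the larger SD of the gene next to it in that order. Some places depend on the length used. With that of the longest transcript, the level of Tgfb1 was 92.8 per kb in sham and 209 per kb in cPTAA, and Skil took the fourth place in cPTAA at 327 per kb, ahead of Tgfb2 at 263 and Tgfbr3 at 249.

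Per length, the 3 ligands summed to 1282 ± 327 reads per kb in cPTAA (SD, n = 7, range 608 to 1601) and 592 ± 90.4 in sham (SD, n = 5, range 488 to 694). Tgfb3 made up 73.0% ± 6.07 of that sum in cPTAA and 76.8% ± 5.45 in sham, Tgfb2 18.004% ± 4.82 and 14.7% ± 2.23, and Tgfb1 8.99% ± 4.44 and 8.47% ± 4.71 (SD, n = 7 and 5). With the length of the longest transcript the share of Tgfb1 was 15.6% ± 7.03 in cPTAA and 14.8% ± 7.57 in sham. These shares describe RNA, and with either length they differed between the groups by less than the SD of the cPTAA libraries.

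**Figure D4:**
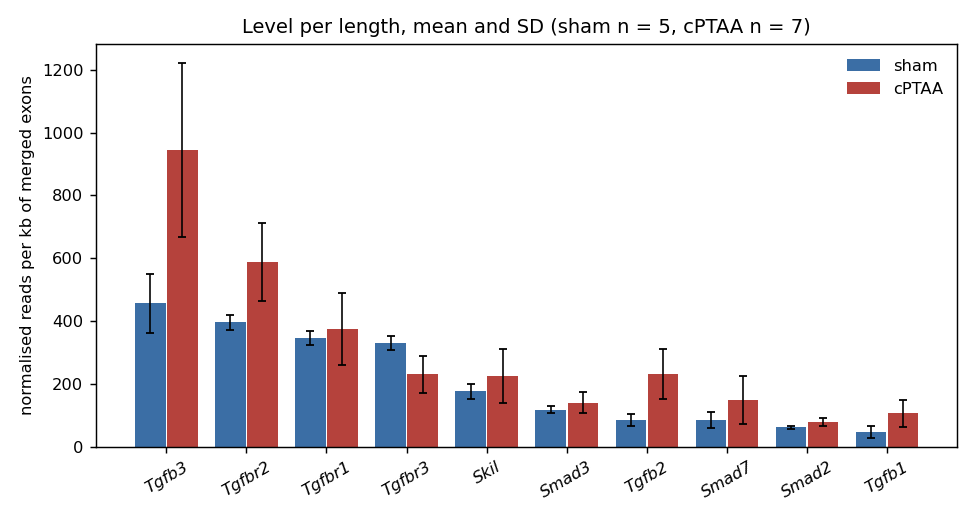
Normalised reads per kb of merged exons (vertical axis, linear and starting at 0) of each gene, as mean (bar) and SD (line), in sham (blue, n = 5) and cPTAA (red, n = 7). Tgfb3 is the highest in both groups, at 457 and 944 per kb.

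The rest of the pathway was described through 5 lists of genes taken from textbook roles. In the list of 20 genes of the latent complex, its matrix relatives and its activators, 11 rose and none fell, beside 12.9% of all genes called higher, with a median log2 fold change of 0.66. Ltbp2, a matrix protein of the latent TGF-beta binding protein family that itself does not bind latent TGF-beta, rose from 2637 ± 397 (SD, n = 5) to 16603 ± 5116 (SD, n = 7), a log2 fold change of 2.60 ± 0.24 (limma adjusted p = 5.93e-06). Thbs1, thrombospondin 1, which can activate the latent complex, rose by 5.11 ± 0.61 (adjusted p = 3.65e-05), and Nrros, which tethers latent TGF-beta on macrophages and microglia, by 2.10 ± 0.18 (adjusted p = 4.61e-06). Mmp2, a matrix metalloproteinase, rose by 1.98 ± 0.37 (adjusted p = 0.00125). The groups did not overlap for Ltbp2, Thbs1 and Nrros and overlapped for Mmp2, beside 8.02% of all genes with every cPTAA value above every sham value. These genes were named for their small p in this same contrast, so the separation adds no evidence. Ltbp3, Fbn1, Fbn2, Itgb5, Lrrc32, Emilin1 and Mmp14 were the other genes called higher, while Ltbp1, Ltbp4, Itgav, Itgb1, Itgb3, Itgb6, Itgb8, Furin and Mmp9 did not pass.

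Of 11 accessory receptors and decoys, 5 rose and none fell, beside 12.9% and 11.1% of all genes, with a median log2 fold change of 0.59. Fmod (fibromodulin), Bgn (biglycan) and Dcn (decorin), small proteoglycans that bind TGF-beta, had log2 fold changes of 2.91 ± 0.31, 1.23 ± 0.30 and 0.63 ± 0.21 (limma adjusted p = 1.8e-05, 0.00763 and 0.0436). Cd109, a membrane coreceptor that restrains TGF-beta signalling, rose by 1.06 ± 0.20 (adjusted p = 0.00144), and Eng (endoglin), the endothelial relative of Tgfbr3, by 0.59 ± 0.14 (adjusted p = 0.00631). Unlike Tgfbr3, Eng had 6 of 7 aneurysms above every sham library. The Dcn call held in 10 of 23 alternative settings. It was lost without cPTAA 2, 3, 4, 6, 7 or 12 or without sham 8, 10 or 11, among others, and its adjusted p reached 0.137 without sham 10.

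Of 19 other Smads and Smad regulators, 18 were tested (Tgif2 was too low), 1 rose and 1 fell, shares below the 12.9% and 11.1% of all genes, and the median log2 fold change was 0.02. These counts depended on single libraries and on the method. Of these genes, 3 were higher and 2 lower without cPTAA 9, 3 were lower without cPTAA 7 or cPTAA 12, and 2 were lower without sham 1. With all libraries kept, 2 were lower by edgeR, 3 were lower with the filter at 10, and 2 were higher with scaling by library totals. Voom with sample weights called 4 higher and 4 lower. Tgif1, a corepressor that binds Smad2 and Smad3, rose from 149 ± 46.4 (SD, n = 5) to 323 ± 56.6 (SD, n = 7), by 1.14 ± 0.19 (limma adjusted p = 0.000527). Nedd4l, a ubiquitin ligase that targets activated Smad2 and Smad3, fell from 523 ± 40.4 to 296 ± 52.5, by 0.83 ± 0.14 (adjusted p = 0.000713). Both were free of overlap between the groups, but both were named by their call in this same contrast. Smad9 (-0.65 ± 0.23, adjusted p = 0.056) and Zfyve9, which anchors Smad2 and Smad3 near the receptor (-0.40 ± 0.14, adjusted p = 0.0572), did not pass. Of 23 alternative settings, 4 called Smad9 lower and 5 called Zfyve9 lower. Smad9 passed without cPTAA 7 (-0.73, adjusted p = 0.0382) or cPTAA 12 (-0.75, 0.0254), and Zfyve9 without cPTAA 7 (-0.45, 0.0363) and by edgeR (-0.40, 0.0411). Both also passed by voom with sample weights (adjusted p = 0.00753 for Smad9 and 0.0125 for Zfyve9) and in limma with the filter at 10 (0.0472 and 0.0459).

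In the activin branch, whose receptors also signal through Smad2 and Smad3, 3 of 12 genes rose and 1 fell (median log2 fold change 0.26), beside 12.9% and 11.1% of all genes. The count of higher genes ran from 2 to 6 over the settings without a covariate, with 6 by voom with sample weights. Fst (follistatin), the secreted antagonist of activin, rose from 166 ± 27.7 (SD, n = 5) to 1074 ± 329 (SD, n = 7), by 2.64 ± 0.23 (limma adjusted p = 4.61e-06). Every aneurysm was above every sham library, but Fst was named by its result in this same contrast. Inhbb, an activin subunit, rose by 1.56 ± 0.43 (adjusted p = 0.0154) and Fstl1 by 0.91 ± 0.25 (adjusted p = 0.0143). Acvr1c (ALK7), a type I receptor abundant in fat, fell by 1.66 ± 0.37 (adjusted p = 0.00435). The Inhbb call was lost without sham 10 (adjusted p = 0.0507).

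Of 30 genes known as targets of TGF-beta in various cells, 19 rose and none fell, beside 12.9% and 11.1% of all genes. Their median log2 fold change was 1.34. Over the settings without a covariate, 17 to 20 were higher and 0 to 2 lower, with 2 lower by voom with sample weights. Timp1, an inhibitor of metalloproteinases, rose from 309 ± 86.2 (SD, n = 5) to 3662 ± 1661 (SD, n = 7), by 3.48 ± 0.28 (limma adjusted p = 3.08e-06), and Cthrc1, a secreted protein of activated fibroblasts, by 5.11 ± 0.50 (adjusted p = 1e-05). Cdkn2b, a cell cycle inhibitor, rose by 1.79 ± 0.21 (adjusted p = 2.88e-05) and Edn1, the vasoconstrictor endothelin 1, by 1.45 ± 0.20 (adjusted p = 9.52e-05). The groups did not overlap for any of these 4 genes, as for 8.02% of all genes in that direction. These genes were named for their small p in this same contrast, so the separation adds no evidence. Acta2, Tagln and Cnn1, contractile genes that also mark smooth muscle, were among the 11 not called, as were Tgfbi, Id1, Id2, Bhlhe40, Cdkn1a, Nox4, Vcan and Pdgfb. Many of these genes respond to other signals too, and protein, ligand release and Smad phosphorylation were not measured.

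**Figure D5:**
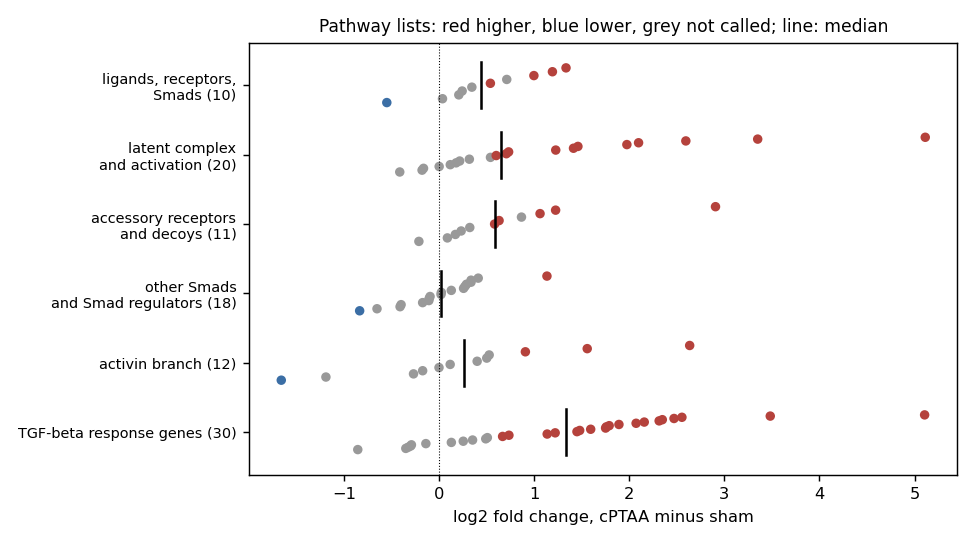
Log2 fold change (horizontal axis, cPTAA minus sham) of each tested gene in the 10 genes described here and in the 5 other lists, with the number tested in brackets, coloured red where called higher, blue where called lower and grey where not called; the black line is the median of the list. The medians run from 0.02 for the other Smads to 1.34 for the response genes.

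Markers of several cell types differed between the groups. The counts below stand beside 12.9% of all genes called higher and 11.1% called lower. Of 11 macrophage markers 11 rose (mean log2 level 10.8 to 11.8 in cPTAA and 8.23 to 9.53 in sham), of 8 B cell markers 8 rose, and of 10 T cell markers 8 rose. Of 10 brown adipocyte markers 10 fell (6.34 to 9.71 in cPTAA, 10.01 to 11.5 in sham, no overlap), as did 5 of 8 white adipocyte, 5 of 10 smooth muscle (10.8 to 12.6 and 12.6 to 13.0), 5 of 10 endothelial and 3 of 7 mesothelial markers, while 2 of 8 fibroblast markers rose and 1 fell. Dcn was 1 of these 2 and is also counted among the accessory receptors and decoys. Its call held in 10 of 23 alternative settings. In summed normalised counts, the macrophage markers ranged from 37200.5 to 71653 in cPTAA and from 6076 to 26463 in sham, and the brown adipocyte markers from 1994 to 45486 and from 34447 to 108208. No marker was at 0 in every library of a group. In whole tissue, a change in the number of cells of a type and a change in RNA per cell cannot be told apart.

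With the brown adipocyte level as a covariate, none of the 10 genes was called. The log2 fold changes were then 0.47 for Tgfb1 (limma adjusted p = 0.549), 0.32 for Tgfb2 (0.662), 0.49 for Tgfb3 (0.493), 0.16 for Tgfbr2 (0.743) and -0.77 for Tgfbr3 (0.167). Without the covariate the values were 1.19, 1.34, 0.998, 0.54 and -0.55, in the same order. That level does not overlap between the groups, so the covariate and the contrast cannot be fully told apart. The median SE over all genes rose from 0.302 to 0.502, and the calls over all genes fell to 360 higher and 119 lower. Why the calls were lost was not tested. The counts of the lists fell to 2 for the response genes, 2 for the latent complex, 1 for the activin branch and 0 for the other 2 lists. Ltbp2, Nrros, Fst, Timp1 and Cthrc1 still passed, with adjusted p between 0.00924 and 0.034.

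Heart muscle markers differed between libraries rather than groups, and none of the 10 was called. Their mean log2 level was 11.05 in cPTAA 9, 9.62 in cPTAA 7, 9.11 in cPTAA 6 and 8.36 in sham 8, the 4 highest of the 12 libraries. In cPTAA 9, which was also the lowest aneurysm for 8 of the 10 pathway genes, the brown adipocyte level was the highest of its group (9.71). Without these 4 libraries, a setting chosen after seeing the data, Smad2 (0.50, limma adjusted p = 0.00607), Smad3 (0.45, 0.00944) and Skil (0.57, 0.0073) were called higher as well, 7 of the 10 in all, and Tgfbr3 was not called (-0.31, 0.0904). The Tgfbr3 to Tgfbr2 ratio differed by -1.09 in the 4 libraries left in each group, with the smallest two-sided exact permutation p that this number allows, 0.0286, and an adjusted p of 0.0857. cPTAA 12, the highest aneurysm for Tgfb1 and Smad7, had the highest B cell level (8.84) and the lowest brown adipocyte (6.34) and smooth muscle levels (10.8) of its group. The part that cell composition has in these results was not tested beyond these settings.

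For each gene, the 3 genes whose log2 values followed it most closely over the 12 libraries were looked up among the 11412 genes with a median count of at least 100 in a group. These Pearson correlations are given as a description, since the libraries share the difference between the groups. Tgfbr2 was nearest to Fbn1 (fibrillin 1, r = 0.98), Bicc1 (0.97) and Actr2 (0.97), and Tgfb2 to Myo1d (0.98), Adamts8 (0.97) and Mgat2 (0.97). Tgfb3 was nearest to Sdc2 (0.97), Rnd3 (0.96) and Riok1 (0.96), and Tgfb1 to Spns2 (0.96), Crlf2 (0.96) and Il3ra (0.96). Tgfbr3 was nearest to Clcn3 (0.94), Sipa1l1 (0.94) and Kif16b (0.94), which like Tgfbr3 had negative log2 fold changes, -0.73, -0.47 and -0.53. Smad7 was nearest to Spry1 (0.98), Rasa1 (0.97) and Col4a2 (0.97), and Smad3 to Pdgfra (0.95). Skil and Tgfbr1 followed each other at r = 0.96, the single case in which 1 of the 10 genes was among the 3 nearest to another.

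Values of overlapping genes are uncertain. In the GENCODE M21 annotation, used for names and lengths only, Tgfb2 and Tgfb3 share exon bases with genes on the opposite strand, 2.14% for Tgfb2 and 4.82% and 7.60% with 1 gene each for Tgfb3, and Tgfbr3 shares 4.54% with a gene on its own strand. The overlapping genes had mean counts of at most 4.56 in either group. How many reads were left uncounted where genes overlap is not known from these values.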

How the data were processed

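RNA was measured by bulk sequencing of poly(A)-selected total RNA from 12 libraries, grouped by the sample titles into 7 cPTAA and 5 sham. The submitters' processing notes name the build GRCm39, featureCounts 1.5.0-p3, StringTie and HISAT2 2.0.5. A strand setting, a scaling and filters are not given in the sources used here, so overlapping genes on opposite strands cannot be told apart. The deposited signal is never negative, and 100% of the values were whole within 0.02 reads once multiplied by 1 factor per library. These factors differed by at most 0.254% from DESeq2 size factors. The aneurysm libraries held 16.2 ± 0.879 M recovered reads (SD, n = 7), the sham libraries 15.7 ± 1.20 M (SD, n = 5). In these values 1 read was worth 0.863 to 1.16 units.

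In R 4.3.3, limma 3.58.1 with a trended prior variance was fitted to log2(value + 1), as fits normalised values, for genes with a value of at least 1 in at least 5 libraries, two-sided, with Benjamini-Hochberg adjustment over 21415 genes. The limma calculation was checked on simulated data in which both groups varied alike. That check does not cover groups of unequal spread, as most of the 10 genes have here. Alternatives were edgeR 4.0.16 and DESeq2 1.42.0 on the recovered reads (edgeR called 2622 genes higher and 2261 lower), voom with sample weights, other scalings, filters and pseudocounts, a brown adipocyte covariate and leaving out each library. The named genes were the 10 themselves, the 4 of each list with the smallest p, all genes of a direction with at most 5 calls, and the 3 nearest genes by correlation; other genes of a list are named by their call only. A cell type level is the mean log2(value + 1) of its markers. The 10 genes and all lists were chosen with earlier results of these data known, so their counts are no independent evidence.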

Additional observations from a re-analysis of the deposited data

Results flagged for a closer look

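A library was looked at again where it stood apart from the others of its group by more than Dixon's 95% criterion. This held in 8 of the 74 groups of values tested. Chance flags about 1 in 20 where groups are independent and values normally distributed. The groups here share libraries and the distribution was not tested, so the number of flags does not measure an excess. In cPTAA 12, Tgfb1 was at 1004 and Smad7 at 1422 normalised read counts, each above the other 6 aneurysms, and Inhbb at 737. The gap of Tgfb1 to the next aneurysm, divided by the range of the group, was 0.758. The call of Tgfb1 held without that library, and Smad7 was not called with or without it. In sham 11, Tgfbr3 was at 1899 and Cthrc1 at 10.5, both the lowest of the sham libraries. In sham 8, Inhbb was at 246, the highest of its group, and the log2 ratio of Tgfbr1 to Tgfbr2 was -0.75, the lowest. In cPTAA 9, Bgn was at 66824, the lowest aneurysm but above every sham library. Why these libraries stand apart was not tested.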

How the results depend on the processing

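The 3 ligand calls held in 22 of 23 alternative settings each, with log2 fold changes of 1.03 to 1.398 for Tgfb1, 1.24 to 1.69 for Tgfb2 and 0.90 to 1.24 for Tgfb3, and were lost with the brown adipocyte covariate. That covariate left 0 of the 10 genes higher and 0 lower, 360 genes higher and 119 lower over all, and turned the sign of Tgfbr1 (-0.39), Smad2 (-0.050), Smad3 (-0.11), Smad7 (-0.23), Skil (-0.41) and Inhbb (-0.42), none of them called under it. Tgfbr2 kept its call in 20 of 23 settings and Tgfbr3 in 16. Leaving out each library in turn gave 0 to 1 of the 10 genes lower, a Tgfbr1 log2 fold change of -0.050 to 0.23, with -0.025 without cPTAA 4, and ratio differences of -0.019 to 0.50 for Tgfb1 to Tgfb3, with -0.016 without sham 5, and -0.38 to 0.15 for Tgfb1 to Tgfb2. Voom with sample weights called 7 of the 10 genes higher, and so did leaving out the 4 libraries highest in heart muscle markers, which called 0 lower and gave ratio differences of -0.47 (Tgfbr1 to Tgfbr2) and -1.09 (Tgfbr3 to Tgfbr2), both with adjusted p = 0.0857 and both at the smallest unadjusted p that 4 against 4 libraries allow, 0.0286. Scaling by library totals called 0 lower; it moved the median log2 fold change of all genes from -0.05 to 0.06 and the share of higher calls from 53.7% to 64.7%. Over all genes, calls without the covariate ran from 2213 to 3481 higher and from 1675 to 3552 lower. The cause of these changes was not tested. No paired analysis was possible because the groups share no replicate number. Intervals on reads cover counting error only. In the lists, the counts of other Smads ran from 1 to 4 in each direction and those of higher activin genes from 2 to 6 without the covariate.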

Other observations

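Tagln, a smooth muscle gene that is usually abundant in aorta, had a mean of 546 ± 92.1 normalised read counts in sham (SD, n = 5) and 710 ± 441 in cPTAA (SD, n = 7), beside 141220 ± 23075 and 122701 ± 51075 for Acta2. Both are in the response list and the smooth muscle markers. The cause was not tested.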
